A study of Rattus norvegicus with 9 samples.

Results

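Npy, Pomc and Cartpt encode the precursors of the best known feeding peptides of the arcuate nucleus, a cell group at the base of the hypothalamus beside the median eminence. The members are all probe sets that the platform annotation assigns to one of these symbols alone, which gave 3 probe sets, 1 per gene, of 31042 in the series. They are 1387154_at for Npy, 1384612_at for Pomc and 1368585_at for Cartpt, in rat genes on chromosomes 4, 6 and 2.

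Neuropeptide Y, made from Npy, raises food intake, and its arcuate neurons also release the agouti-related peptide, which blocks melanocortin receptors. Pomc is cut by prohormone convertases into alpha-MSH, which acts on those receptors to curb feeding, and into ACTH and beta-endorphin. In the rat Cartpt is made in many Pomc neurons of the arcuate nucleus and also in neurons of the lateral, paraventricular and supraoptic regions, and Npy is made in scattered interneurons of the cortex and striatum as well. Leptin and insulin lower Npy and raise Pomc and Cartpt in arcuate neurons, while fasting does the opposite.

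The tissue was hypothalamus of 9 male rats, each 13 weeks old and hybridized to an array of its own. The 4 noodle-diet rats (rats 1, 4, 7 and 13) ate a medium-fat diet in which instant noodles made up 30% by weight and fat gave 26% of the energy. The 5 control-diet rats (rats 2, 5, 8, 11 and 14) were given it without its seasonings. The labels give the feeding period both as 30 days and as 4 weeks, with paired feeding in both groups, near 60 g of diet daily for each kg of body weight. So the comparison is of seasonings in the food. The sources used here do not give the strain, the feeding state at dissection or the borders of the dissected block. Defining hypothalamic peptide genes were measured on every array, with Hcrt (orexin) at 8.75 to 10.1, Pmch at 11.8 to 12.4, Avp at 10.5 to 11.8 and Oxt at 8.67 to 10.5 on the deposited log2 scale.

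Of the 31042 probe sets, 29759 (95.9%) had a range under 0.01 log2 units. Those are called compressed here, and the 1223 that ranged over more than 0.05 are called variable. The Npy and Cartpt probe sets were variable and the Pomc probe set was compressed. Array medians lay between 6.777 and 6.785, and all values are deposited log2 values.

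Npy and Cartpt were the 2 variable members, so the bases just before their RefSeq start sites are shown, 5′ to 3′ on the gene's strand. The Npy window is chr4:80211861-80212110 on the plus strand and the Cartpt window chr2:32991236-32991485 on the minus strand of GRCr8. The capitals mark the only match to a searched motif in the pair, a cAMP response element.
Npy: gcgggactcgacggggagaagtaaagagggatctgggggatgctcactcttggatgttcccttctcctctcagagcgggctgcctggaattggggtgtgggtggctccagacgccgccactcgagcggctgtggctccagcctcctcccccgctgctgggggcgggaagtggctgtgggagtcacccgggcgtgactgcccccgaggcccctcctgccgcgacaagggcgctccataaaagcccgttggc
Cartpt: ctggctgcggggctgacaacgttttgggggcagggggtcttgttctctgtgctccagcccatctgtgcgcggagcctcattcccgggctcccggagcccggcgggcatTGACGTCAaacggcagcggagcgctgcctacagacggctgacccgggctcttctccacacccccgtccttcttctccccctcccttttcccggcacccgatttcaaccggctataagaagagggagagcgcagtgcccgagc

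RefSeq's table of promoters held all 3 member genes. The windows of 250 bases were searched on both strands for TATAAA, TGACGTCA and TTCNNNGAA, which are the TATA box, the cAMP response element and a site bound by STAT factors. The Cartpt window held TGACGTCA with its first base at -142 from the start site, and 1.59% of the 33469 promoter windows hold it. The Npy window held none of these letters. The Pomc window held TATAAA with its first base at -32, as do 12.9% of windows at any position, and 7.67% of all windows hold TTCNNNGAA. For Cartpt and Pomc the annotated gene begins upstream of the start site used here, so other transcripts cover all or part of those windows.

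Npy, the appetite-raising member, overlapped between the diets. Its values spread wider among the noodle-diet rats, a difference in spread that was not tested. On the noodle diet the level was 8.94 in rat 1, 8.72 in rat 4, 8.69 in rat 7 and 8.86 in rat 13. On the control diet it measured 8.90 in rat 2, 8.79 in rat 5, 8.86 in rat 8, 8.85 in rat 11 and 8.77 in rat 14. The lowest and the highest of the 9 values were both noodle-diet rats, and the groups overlapped. The means were 8.80 ± 0.12 (SD, n = 4) and 8.83 ± 0.053 (SD, n = 5).

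For Npy the difference, noodle minus control diet, was -0.033 log2 units (SE 0.057) and did not pass limma's test (adjusted p over all probe sets 0.999995). An exact 2-sided permutation test over all 126 splits of the rats gave p = 0.595. The 95% interval of the limma fit corresponds to 0.893-fold to 1.07-fold of the control diet on the deposited scale. By limma 0 of 31042 probe sets passed (0%), 712 (2.29%) had an unadjusted p under 0.05, and 176 (0.567%) had groups that did not overlap. Among the variable probe sets alone, 1 of 1223 (0.0818%) had groups that did not overlap. Of the 3 members, 0 met any of these.

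Cartpt, whose peptide curbs feeding, overlapped between the diets, with 1 noodle-diet rat below all others. On the noodle diet it measured 10.85 in rat 1, 10.76 in rat 4, 10.52 in rat 7 and 10.88 in rat 13. On the control diet it measured 10.83 in rat 2, 10.80 in rat 5, 10.79 in rat 8, 10.74 in rat 11 and 10.73 in rat 14. Noodle-diet rat 7 lay below every other rat and the groups overlapped, with means of 10.75 ± 0.16 (SD, n = 4) and 10.78 ± 0.040 (SD, n = 5).

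The Cartpt difference was -0.025 (SE 0.070), with adjusted p = 0.999995 by limma and exact permutation p = 0.841. Its 95% interval corresponds to 0.877-fold to 1.10-fold. Without noodle-diet rat 7 the sign turned for both genes, to 0.052 (SE 0.033) for Cartpt and 0.0064 (SE 0.054) for Npy, and neither passed by limma (adjusted p = 0.999566 for both). The noodle-diet SD of Cartpt was 0.061 without rat 7. For Npy the SD of the other 3 noodle-diet rats was still 0.11.

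The Pomc probe set hardly moved. Its probe set measured 6.256544, 6.256657, 6.256506 and 6.256692 in noodle-diet rats 1, 4, 7 and 13. It measured 6.256709, 6.256316, 6.256499, 6.256442 and 6.256542 in control-diet rats 2, 5, 8, 11 and 14. The whole span was 0.000393 log2 units, against 0.0079 between the lowest and the highest array median, and 20127 of the 29759 compressed probe sets spanned more. The noodle-diet mean was higher by 9.8e-05 (SE 8.1e-05; limma adjusted p = 0.999995; exact permutation p = 0.270), with overlapping groups. A span this small, under that of the array medians, was not read as a fold change, and Npy was not set against Pomc.

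**Figure D1:**
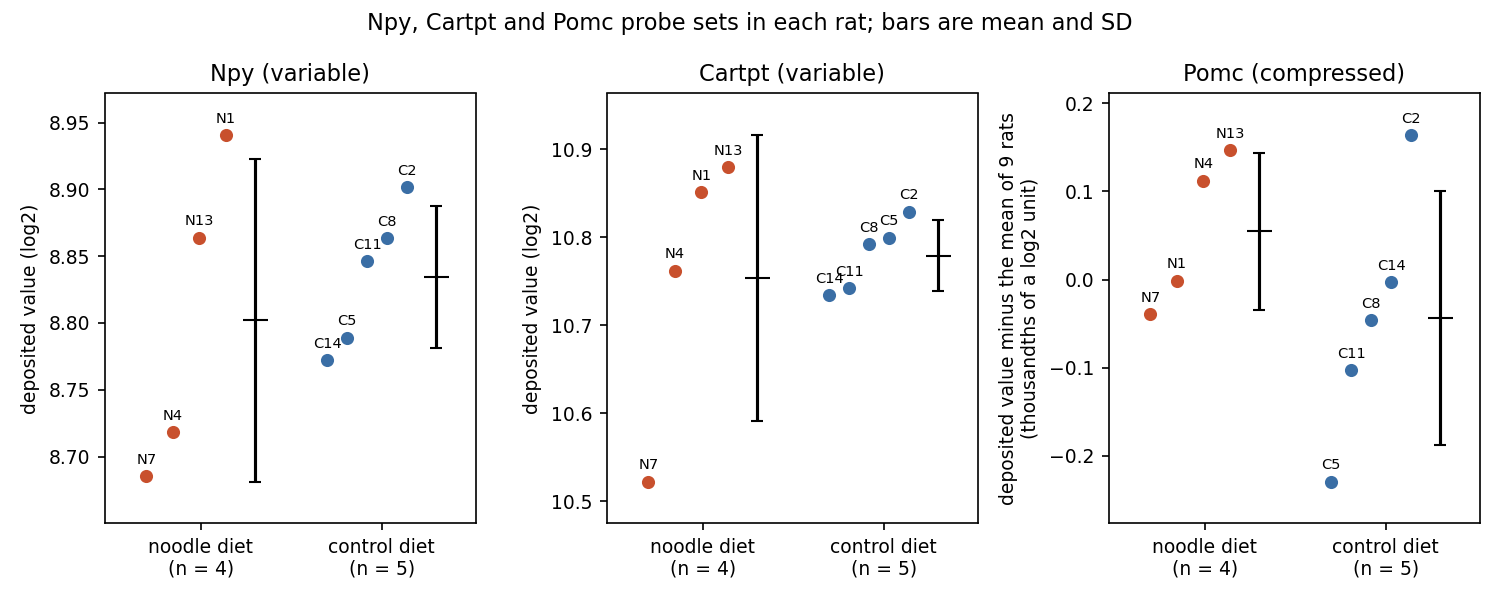
Deposited log2 value (vertical axes) of the Npy, Cartpt and Pomc probe sets in each noodle-diet (N) and control-diet (C) rat, with mean and SD at the right of each group; Pomc is drawn as the value minus its mean over the 9 rats, in thousandths of a log2 unit. Noodle-diet rat 7 is lowest for Npy (8.69) and Cartpt (10.52), and the diets overlap in all 3 panels.

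Npy and Cartpt could be compared as a pair, since both were variable. After each gene was set to its mean over the 9 rats, the Npy deviation minus the Cartpt deviation averaged -0.0039 ± 0.096 (SD, n = 4) for noodle-diet rats and 0.0031 ± 0.043 (SD, n = 5) for control-diet rats. That difference of -0.0071 was smaller than either SD (exact 2-sided permutation p = 0.873), so no shift of one peptide gene against the other was detected. This comparison was added after the values had been seen.

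**Figure D2:**
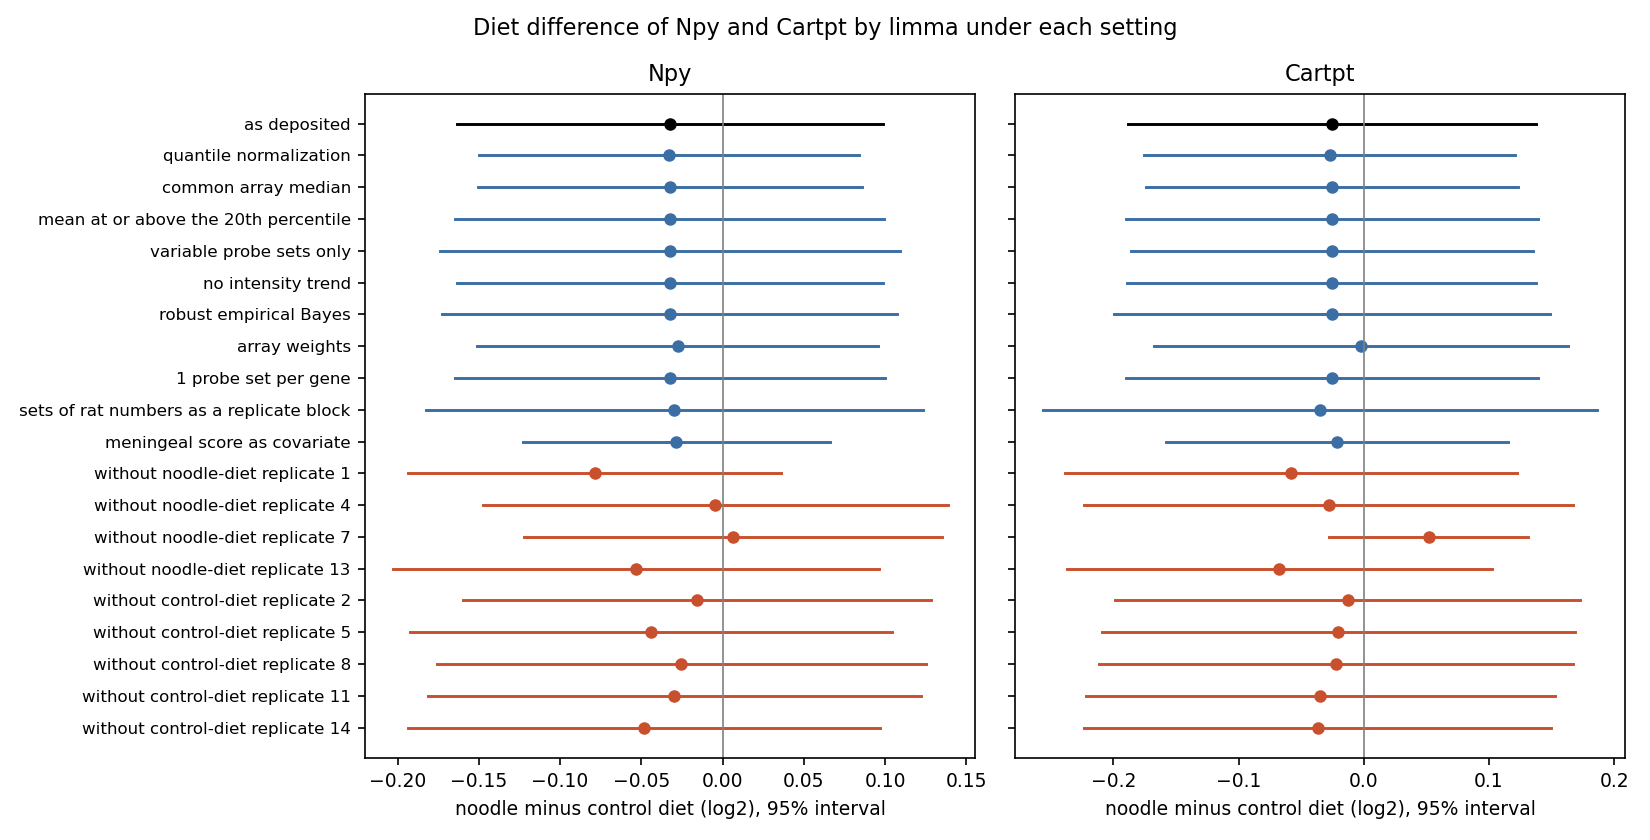
Diet difference of Npy and Cartpt, noodle minus control, in log2 units (horizontal axes) with the 95% interval of the limma fit, for the values as deposited (black), other processing settings (blue) and with each rat left out (red). All intervals span 0, and the estimates are above 0 only without noodle-diet rat 7 (0.0064 for Npy and 0.052 for Cartpt).

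Across rats, whatever their diet, Npy and Cartpt rose and fell together. Rats 1 and 13 of the noodle diet and rats 2 and 8 of the control diet were above the mean of the 9 rats for both genes, and noodle-diet rat 7 was lowest for both. Pearson's r over the 9 rats was 0.773 (exact permutation p = 0.0063, adjusted p = 0.073 over the 23 relations computed) and Spearman's rho was 0.833 (exact permutation p = 0.0083, adjusted p = 0.038). So the rank correlation passed at 0.05 and Pearson's did not. Without the pair of rats farthest from the median of Npy, noodle-diet rats 4 and 7, r was 0.649, without noodle-diet rat 7 alone it was 0.655 (exact permutation p = 0.079), and with diet means removed it was 0.770. In bulk tissue, fewer cells of a type and less RNA per cell cannot be told apart. The compressed Pomc probe set was not entered into these relations.

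The other relations set Npy and Cartpt against scores of cell types and regions. A score is the mean deviation, over a list's variable genes, of a rat from the mean of the 9 rats. Of the 23 relations 0 passed at an adjusted p of 0.05 by Pearson's r with exact permutation, 7 had an unadjusted p under 0.05, and 5 passed by Spearman's rho. Of 14 measured neuron genes 4 were variable, the neurofilament genes Nefl, Nefm and Nefh and the dendritic gene Map2. The firmest relation was that of Npy with the neuron score, which rests on these 4. There r was -0.862 (exact permutation p = 0.0023, adjusted p = 0.052) and rho -0.950 (exact permutation p = 0.00035, adjusted p = 0.0081). The extremes were not the same rats: Npy was highest in noodle-diet rat 1, and the neuron score was lowest in control-diet rat 2. By single gene, r with Npy ran from -0.82 for Nefm to -0.55 for Map2. For the score it was -0.957 without noodle-diet rat 4 and control-diet rat 2. For Cartpt and the neuron score r was -0.545 (exact permutation p = 0.142, adjusted p = 0.272) and rho -0.70 (exact permutation p = 0.043, adjusted p = 0.111).

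The score of genes listed for the meninges, the covering of the brain, and for fibroblasts had a positive r with both peptide genes. Neither relation passed at an adjusted p of 0.05 by r or rho. All 16 listed genes were measured and 15 were variable. Each of the 15 had a positive r with Npy (0.549 to 0.823) and with Cartpt (0.435 to 0.780). Among them were the transporters Slc13a4 and Slc22a6, the proteoglycan gene Ogn and the growth factor gene Igf2. Variable genes leaned positive in general, with a median r over 935 variable named probe sets of 0.219 with Npy and 0.218 with Cartpt. The meningeal score ran from -0.458 to 0.646 in noodle-diet rats and from -0.535 to 0.522 in control-diet rats. Its r was 0.746 with Npy (exact permutation p = 0.026, adjusted p = 0.125; rho 0.717, exact permutation p = 0.037, adjusted p = 0.106). With Cartpt it was 0.647 (exact permutation p = 0.029, adjusted p = 0.125; rho 0.733, exact permutation p = 0.031, adjusted p = 0.102). Without control-diet rats 11 and 14, the farthest from the median score, r was 0.919 with Npy and 0.708 with Cartpt. Hbb, the only variable gene of the red blood cell list, had r of 0.648 with Npy and 0.590 with Cartpt. The tissue that these genes came from was not tested.

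A fit that carries the meningeal score as a covariate, added after the data had been seen, left the diet differences at -0.028 (SE 0.040) for Npy and -0.021 (SE 0.057) for Cartpt. Neither passed by limma (adjusted p = 0.999944 for both). Without the covariate the standard errors were larger, 0.057 for Npy and 0.070 for Cartpt. That drop follows from the r of the score with both genes and is no separate result. The part of the meningeal signal in the spread of Npy and Cartpt was not tested.

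**Figure D3:**
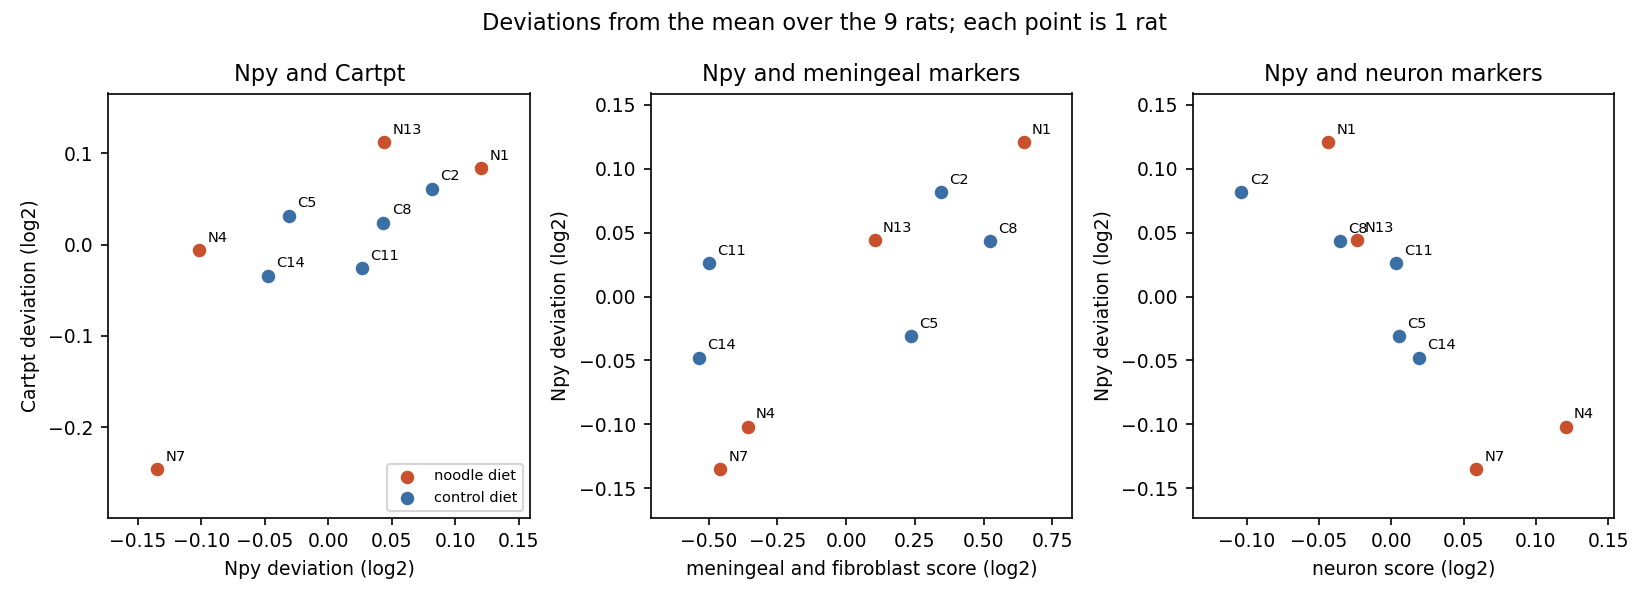
Each point is 1 rat, with N for the noodle diet and C for the control diet and all axes in log2 units around the mean of the 9 rats: Cartpt against Npy, Npy against the meningeal and fibroblast score, and Npy against the neuron score. Npy runs with Cartpt (r 0.773) and the meningeal score (r 0.746) and against the neuron score (r -0.862), with rats of both diets along each trend.

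For tanycytes, the glia that line the ventricle floor beside the arcuate nucleus, 4 of 11 measured genes were variable. The score rests on these, Vim, Crym, Col25a1 and Slco1c1, and listed genes such as Rax, Dio2 and Nes did not enter. It had an r of 0.714 with Npy (exact permutation p = 0.028, adjusted p = 0.125; rho 0.800, exact permutation p = 0.014, adjusted p = 0.053). With Cartpt r was 0.650 (exact permutation p = 0.068, adjusted p = 0.174; rho 0.833, exact permutation p = 0.0083, adjusted p = 0.038). The genes of the score did not act as one, since Crym had r of 0.69 with Npy and 0.78 with Cartpt while Slco1c1 had -0.32 and -0.15. Without noodle-diet rats 1 and 7 r was 0.404 with Npy and 0.693 with Cartpt. Vim is also made by meningeal cells.

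The score of the arcuate dopamine and neuroendocrine list ran opposite to both peptide genes, though by Pearson's r neither relation passed. Of 13 measured genes of the list 7 were variable and entered the score. They are Slc18a2, Tac3, Gad1, Gad2, Slc32a1, Sst and Prlr, most of which are also made outside the arcuate nucleus. Listed genes such as Th, Ghrh and Kiss1 did not enter, so the score does not stand for arcuate neurons as a whole. Its r was -0.672 with Npy (exact permutation p = 0.046, adjusted p = 0.151; rho -0.833, exact permutation p = 0.0083, adjusted p = 0.038). With Cartpt r was -0.724 (exact permutation p = 0.033, adjusted p = 0.125; rho -0.917, exact permutation p = 0.0013, adjusted p = 0.015). Slc32a1, the vesicular GABA transporter, had r of -0.80 with Npy and -0.74 with Cartpt. One probe set of Slc18a2 had 0.26 and 0.17, and another had 0.09 and 0.14. Of the 7 genes, 2 had a positive r with Npy and 1 with Cartpt. Without noodle-diet rat 7 and control-diet rat 14, r was -0.555 with Npy and -0.751 with Cartpt.

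The remaining 7 scores did not pass with either gene by r or rho. Magnocellular Avp and Oxt gave -0.638 with Npy and -0.432 with Cartpt (exact permutation p = 0.066 and 0.238; adjusted p = 0.174 and 0.379). Without noodle-diet rat 1 and control-diet rat 2 these were -0.182 and -0.212, so the relation rests on those rats. The ependymal and choroid plexus score gave 0.537 and 0.576 (exact permutation p = 0.138 and 0.077, adjusted p = 0.272 and 0.177). Of its 3 genes only Ttr had a positive r with Npy (0.60) and Cartpt (0.76), while Prlr and Tmem212 ran against them. The median r by gene was -0.207 with Npy and -0.597 with Cartpt. Oligodendrocytes, microglia, astrocytes, cortex and pituitary lay between -0.159 and 0.488, with exact permutation p of 0.184 upward (adjusted p of 0.325 upward). For the cortex, which rests on Nrgn and Etv1, r with Npy was -0.0053. It was 0.556 without noodle-diet rat 4 and control-diet rat 5, and -0.392 without noodle-diet rat 7, so single rats set this value. Of 12 measured genes of the pituitary list 3 were variable, Tshb, Cga and Dlk1. Their score ran from -0.197 to 0.669 in noodle-diet rats and from -0.753 to 0.573 in control-diet rats. The r of this score was -0.159 with Npy and 0.169 with Cartpt. The 3 genes did not act as one, since Dlk1 had r of 0.52 with Npy, Tshb -0.25 and Cga -0.08.

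**Figure D4:**
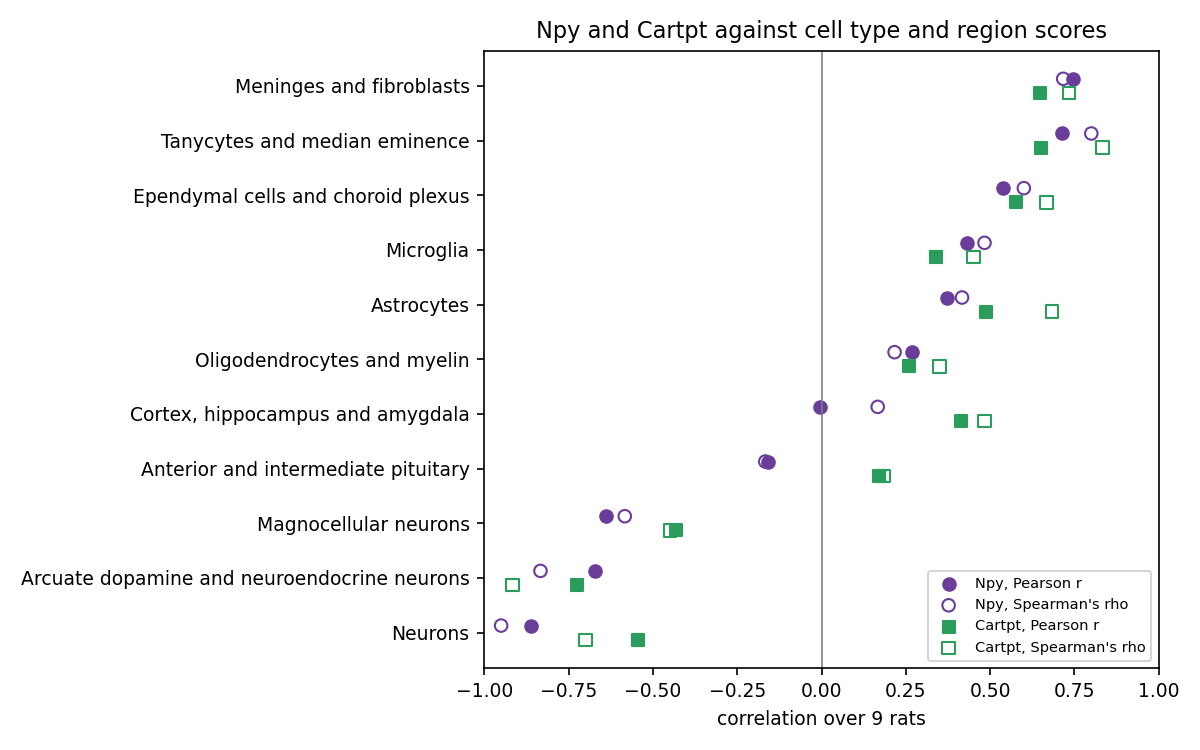
Correlation over the 9 rats (horizontal axis) of Npy (circles) and Cartpt (squares) with each score of cell type or region markers, as Pearson's r (filled) and Spearman's rho (open). Both genes lie at the positive end for meninges and tanycytes; the lowest r is that of neurons for Npy (-0.862) and of arcuate dopamine and neuroendocrine neurons for Cartpt (-0.724).

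Among single genes, the 6 most like Npy by Pearson's r over the 9 rats, of the variable probe sets with 1 symbol, were Ccn2, Cdh1, Ddr2, Ch25h, F3 and Klf5 (r 0.842 to 0.861). Ccn2 encodes a matrix-associated growth factor, Cdh1 E-cadherin, Ddr2 a collagen receptor, Ch25h a cholesterol hydroxylase, F3 tissue factor and Klf5 a transcription factor. The 4 most opposite were Cplx1, Tpi1, Thy1 and Syn2 (r -0.932 to -0.900). Cplx1 and Syn2 encode the presynaptic proteins complexin and synapsin, Thy1 a neuronal surface glycoprotein and Tpi1 a glycolytic enzyme. Without noodle-diet rat 7 these 10 kept r of at least 0.789 on the positive side and of -0.869 or below on the negative side. A further variable probe set of Syn2 stood at -0.83 with Npy, and one of Ddr2 stood lower than the first, at 0.642. These genes were taken as the extremes, so their r carries no test.

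Many variable genes shared the Npy pattern, and fewer shared that of Cartpt. Of 935 other variable named probe sets, 88 had r above 0.7 with Npy and 45 below -0.7. For Cartpt these were 28 and 8. The median variable named probe set had 66 partners above 0.7 and 21 below -0.7.

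The genes most like Cartpt were Eya1 (r 0.915), Ddr2, Pik3c2a, Mmp15, Crym and Col3a1 (down to 0.780). Eya1 encodes a transcriptional coactivator, Pik3c2a a lipid kinase, Mmp15 a membrane metalloprotease, Crym a protein that binds thyroid hormone and Col3a1 a fibrillar collagen. The most opposite were Acsm5, an acyl-CoA synthetase gene (r -0.871), Syn2, Gnrh1 and Cplx1 (up to -0.756). Unlike those of Npy, several rest on noodle-diet rat 7. Without it Pik3c2a stood at -0.307, Mmp15 at -0.127 and Ddr2 at 0.576, while Eya1, Crym and Col3a1 stood at 0.758, 0.766 and 0.763. On the opposite side Acsm5 then stood at -0.565, Syn2 at -0.516, Gnrh1 at -0.362 and Cplx1 at -0.584. Ddr2, Syn2 and Cplx1 are named for both peptide genes, for Ddr2 through different probe sets.

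**Figure D5:**
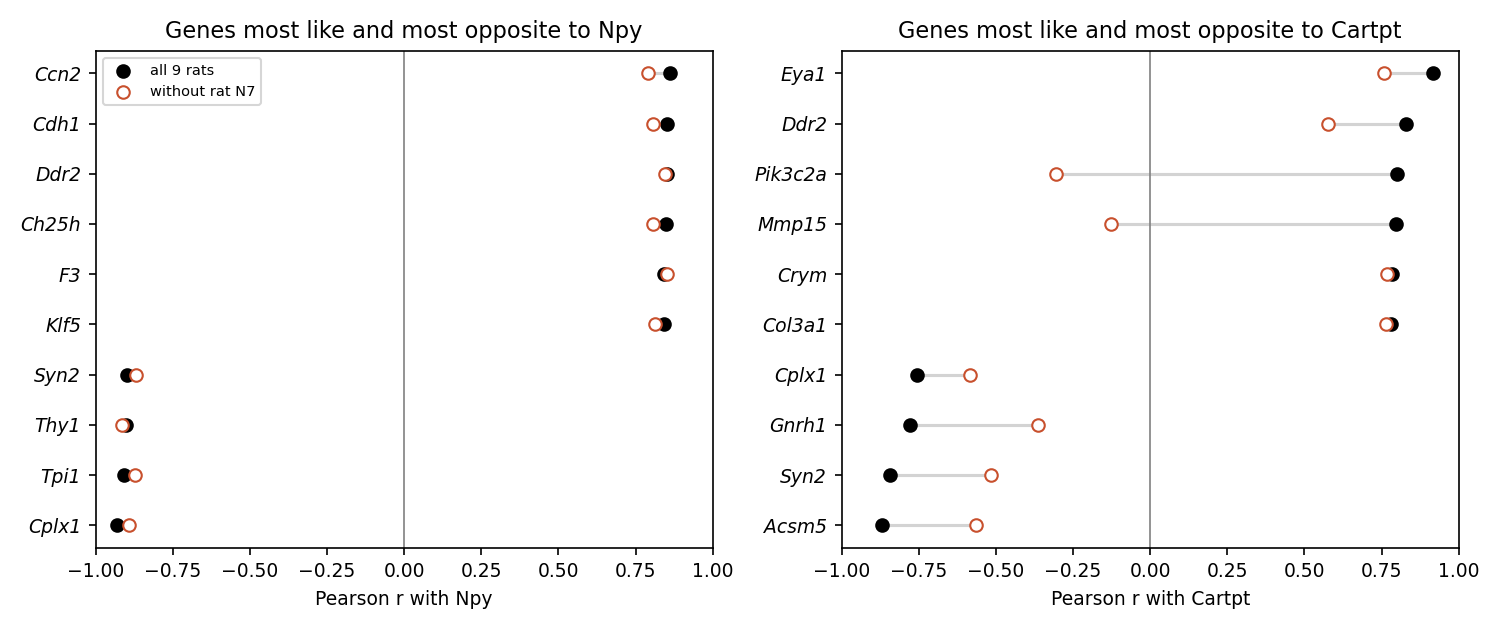
Pearson's r (horizontal axes) of the 6 genes most like and the 4 most opposite to Npy (left) and Cartpt (right), over all 9 rats (filled) and without noodle-diet rat 7 (open). The points of Npy hardly move, while Pik3c2a and Mmp15 pass from 0.799 and 0.796 with Cartpt to -0.307 and -0.127.

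Noodle-diet rat 7 also had the highest mean in the manufacturer's hybridization controls, which are added to each array and do not come from the rat. Of 16 such probe sets 12 were variable, and 8 of those 12 were highest in rat 7. The mean deviation of the 12 was 0.176 there, 0.118 in control-diet rat 5 and -0.128 to 0.071 in the other 7 rats. Over the 9 rats this mean had r of -0.217 with Npy (exact permutation p = 0.568, rho -0.083, exact permutation p = 0.843). With Cartpt r was -0.437 (exact permutation p = 0.248) and rho 0 to 2 decimals (exact permutation p = 1.0). Without rats 7 and 5, the farthest from its median, r was 0.562 and 0.398. These 2 relations were added after the values had been seen, with p not adjusted, and the part of hybridization in the low values of rat 7 was not tested.

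The rest of the feeding pathway showed no call by limma in either direction. Receptors and accessory proteins of NPY and melanocortin signalling were compressed throughout, as were 95.9% of all 31042 probe sets. Of 17 listed genes 12 were measured, among them the receptor genes Npy1r, Npy2r, Npy5r and Mc4r and the opioid receptor genes Oprm1 and Oprd1. Of their 17 probe sets 0 were variable, beside 3.94% of all probe sets. Their ranges ran from 0.000249 for a probe set of Atrn, a cofactor of agouti signalling, to 0.00115 for one of Oprm1. The platform annotation gave no probe set the single symbol Agrp, so Agrp could not be analysed here. The median difference of that list was -2.7e-06, beside -4.6e-06 for all probe sets, with 8 of 17 higher on the noodle diet and 0 called by limma (lowest unadjusted p 0.119).

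Of 19 measured genes of prohormone processing and dense core vesicles, the machinery that matures these peptides, 7 were variable and 0 of 26 probe sets were called. Pcsk1n, an inhibitor of prohormone convertase, had noodle-diet and control-diet means of 10.47 ± 0.19 and 10.53 ± 0.034 (SD), and r of -0.67 with Npy. Cadps2, a priming factor of dense core vesicles, measured 9.31 ± 0.14 against 9.32 ± 0.059 (r -0.65 with Npy). Scg2, a granin gene, measured 11.67 ± 0.048 against 11.61 ± 0.14, and Qpct, the enzyme that forms pyroglutamate at peptide ends, 8.60 ± 0.12 against 8.54 ± 0.19.

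Of 28 measured genes of leptin, insulin, ghrelin and other hormone sensing 3 were variable and 0 of 52 probe sets were called. Htr2c, a serotonin receptor gene of Pomc neurons, measured 9.63 ± 0.062 against 9.64 ± 0.10 (r -0.59 with Npy). Calcr, the calcitonin receptor, measured 7.37 ± 0.12 against 7.44 ± 0.13 by one probe set and 9.30 ± 0.071 against 9.36 ± 0.12 by another. The prolactin receptor gene Prlr measured 7.21 ± 0.15 against 7.24 ± 0.12. Of 14 measured transcription factors of arcuate and ventral hypothalamic neurons only Dlx1 was variable (8.08 ± 0.078 against 8.16 ± 0.14), and 0 of 27 probe sets were called.

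Of 24 measured genes of other feeding peptides 8 were variable and 0 of 27 probe sets were called. The variable ones of widest range were Nmu, Hcrt, Nts and Trh. Nts, the neurotensin gene, measured 7.87 ± 0.34 against 7.93 ± 0.23 and had r of -0.57 with Npy and -0.64 with Cartpt. Trh, the gene of thyrotropin-releasing hormone, measured 8.75 ± 0.27 against 8.89 ± 0.097, with r of -0.72 and -0.53. The means of Nmu, the neuromedin U gene, were 7.80 ± 0.42 against 7.32 ± 0.66, with r of -0.33 and -0.09. Those of Hcrt were 9.81 ± 0.18 against 9.65 ± 0.53, with r of -0.36 and -0.16. Of the 8, only Npvf (r 0.36) and Sst (0.18) had a positive r with Npy.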

How the data were processed

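The authors deposited 1 table of log2 values for 9 Affymetrix rat arrays of hypothalamus RNA. The log2 scale of the deposited values is inferred from their span, 5.13 to 13.7; the sources used here do not give their summarization or normalization. The values were used as deposited. The manufacturer's 57 control probe sets were left out, and of the other 31042 the platform annotation gave 1 symbol to 20826, several to 436 and none to 9780.

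Diets were compared with limma 3.58.1 in R 4.3.3 (intensity trend, Benjamini-Hochberg over all probe sets, threshold 0.05), and single probe sets with exact permutation tests. Relations over rats used exact permutation over all pairings, adjusted over 23 relations. Scripts were tested on simulated data. The number of arrays limits the precision. The labels number the rats, 1 array each. The members, lists and tests were chosen with earlier results of these data known. Named genes were all members, the 6 highest and 4 lowest r per variable member, and up to 4 variable genes of widest range per list. Alternatives covered scaling, filters, the variance model, weights, probe sets per gene, a block and single rats left out. RefSeq promoters are from GRCr8.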

Additional observations from a re-analysis of the deposited data

Results flagged for a closer look

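In 92 groups (2 diets for each member, likeness gene, named pathway gene and score), 1 rat lay far from the rest in 3; chance does this in about 1 group of 20. The magnocellular score, of Avp and Oxt, was -1.0562 in noodle-diet rat 1 and 0.294 to 0.523 in the other noodle-diet rats. Klf5, one of the genes most like Npy, stood at 7.363 in control-diet rat 2, with the other control-diet rats at 7.085 to 7.162. Pcsk1n stood at 10.472 in control-diet rat 11, with the others at 10.536 to 10.560. Neither Npy, Pomc nor Cartpt had such a rat in either diet by this criterion, although Cartpt was lowest in noodle-diet rat 7.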

How the results depend on the processing

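The diet differences of Npy, Cartpt and Pomc kept their sign and did not pass in any of the 10 limma alternatives run on all rats, except that the fit on variable probe sets holds no Pomc. With single rats left out, limma and the exact test gave Npy -0.079 to 0.0064, Cartpt -0.067 to 0.052 and Pomc 5.2e-05 to 0.00015, and the sign turned only without noodle-diet rat 7. No label pairs the rats. A fit with sets of 3 consecutive rat numbers as a replicate block, in which control-diet rat 11 has no partner, gave -0.030 for Npy and -0.035 for Cartpt, with 0 probe sets called by limma and 1029 at an unadjusted p under 0.05. By Pearson's r, 1 of 23 relations, Npy with the neuron score, passed with quantile normalization, after centring on one median and when noodle-diet rat 1 was left out (r -0.881, -0.866 and -0.888), and 0 to 1 passed with single rats left out. The Npy minus Cartpt difference lay between -0.045 and 0.024 as each rat was left out, turning positive without noodle-diet rats 4 (0.024) or 13 (0.014) or control-diet rat 11 (0.0052). Signs also turned with single rats left out for r of Npy with pituitary (-0.324 to 0.064) and cortex (-0.392 to 0.309), of Cartpt with Pik3c2a (-0.307 to 0.853) and Mmp15 (-0.127 to 0.899), and of the hybridization controls with Npy (-0.488 to 0.246) and Cartpt (-0.557 to 0.311). The same held for the diet differences of Hcrt (-0.074 to 0.249), Nts (-0.207 to 0.061), Qpct (-0.012 to 0.114), Pcsk1n (-0.119 to 0.025), Scg2 (-0.0021 to 0.086), Cadps2 (-0.066 to 0.044), Prlr (-0.100 to 0.018) and Htr2c (-0.026 to 0.039). The cause was not tested.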
